A study of Arabidopsis thaliana with 8 samples.

Results

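The comparison of *idd4* and wild type (WT) seedlings without salt was examined across 19083 genes, out of 27207 in the table. The genes were chosen by level alone: their values averaged 10 or more in the 4 libraries compared. Every library came from *Arabidopsis thaliana* seedlings of 14 days in the Col-0 background, WT or *idd4*, which had spent 5 days on diluted MS medium before transfer to fresh plates. The mock plates used here held no NaCl, and the 4 other libraries of the series, 2 of each genotype, came from plates with 100 mM NaCl. Each mock group has 2 libraries, with 9835493 and 10621311 fragments in WT and 10986543 and 13199512 in *idd4*. Whole seedlings mix leaf and root cells, so fewer cells of a type and less RNA per cell cannot be told apart. Per the paper, the *idd4* line carries a T-DNA in the coding sequence of the gene, and the libraries are biological replicates, more of which are mentioned than the 2 per group analysed here. How many seedlings were pooled in a library is not given in the sources used here.

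IDD4 belongs to the INDETERMINATE DOMAIN (IDD) family, plant transcription factors with zinc fingers that bind DNA, several of which work together with the GRAS proteins SCARECROW, SHORT-ROOT and DELLA in root patterning and hormone signalling. The gene groups that stood out below belong to a pair of other well-studied networks. Abscisic acid (ABA) is the hormone of water deficit: it is made through NCED enzymes, is held in check by PP2C phosphatases, and switches on dehydrins and late embryogenesis abundant (LEA) proteins that protect drying cells. The iron deficiency network is led by bHLH transcription factors and small IMA peptides, is restrained by the ubiquitin ligase BTS, and switches on reductases and transporters that bring iron into the plant. Ferritin, which stores iron, is regulated in the opposite direction.

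No gene passed the test between the genotypes. With limma on log2(value + 1), in which a value is a fragment count scaled to a common library total, 0 of 19083 genes reached an adjusted p under 0.05 after Benjamini-Hochberg adjustment, and the lowest unadjusted p was 0.00041. The adjusted p of every gene named below was therefore 1, and the differences are given as values with their standard errors (SE). At an unadjusted p under 0.05 there were 74 genes higher in *idd4*, 0.388% of those tested, and 151 lower, 0.791%, together 1.18%. After median-of-ratios scaling these counts were 122 and 110, after TMM scaling 123 and 109, and after quantile scaling 135 and 122. Of all genes, 42.4% were higher on average in *idd4* and 57.6% lower. edgeR on the recovered fragments passed 0 genes, with 126 higher and 112 lower unadjusted, and DESeq2 passed 3 genes, *LEA7*, *LEA4-5* and *ACD6*. Both *idd4* libraries lay above both WT libraries in 1624 genes, 8.51% of all, and below them in 3031 genes, 15.9%. These are the shares against which the gene groups are read. The median gene differed by -0.04. With 2 libraries against 2, an exact permutation test of a single gene cannot give a two-sided p below 0.333.

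Replicates did not group by genotype. Across the 19083 genes, the closest pairs were those of equal replicate number. WT mock 2 and *idd4* mock 2 correlated at r = 0.9867, and WT mock 1 and *idd4* mock 1 at r = 0.9751. The 2 WT libraries and the 2 *idd4* libraries each correlated at r = 0.9715, and the remaining pairs at r = 0.9697 and 0.9706. These correlations are across genes, which are not independent replicates. The 2 WT libraries differed by more than 1 on the log2 scale in 5.13% of genes and the 2 *idd4* libraries in 5.33%. For WT against *idd4* of equal number that share was lowest, 1.67% for replicate 2 and 3.3% for replicate 1. For the other pairs of unlike genotype it was 4.75% and 6.17%. The main fit does not pair libraries by number. *idd4* mock 1 stood apart for many of the genes below. For several lists the median is given with and without it.

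**Figure D1:**
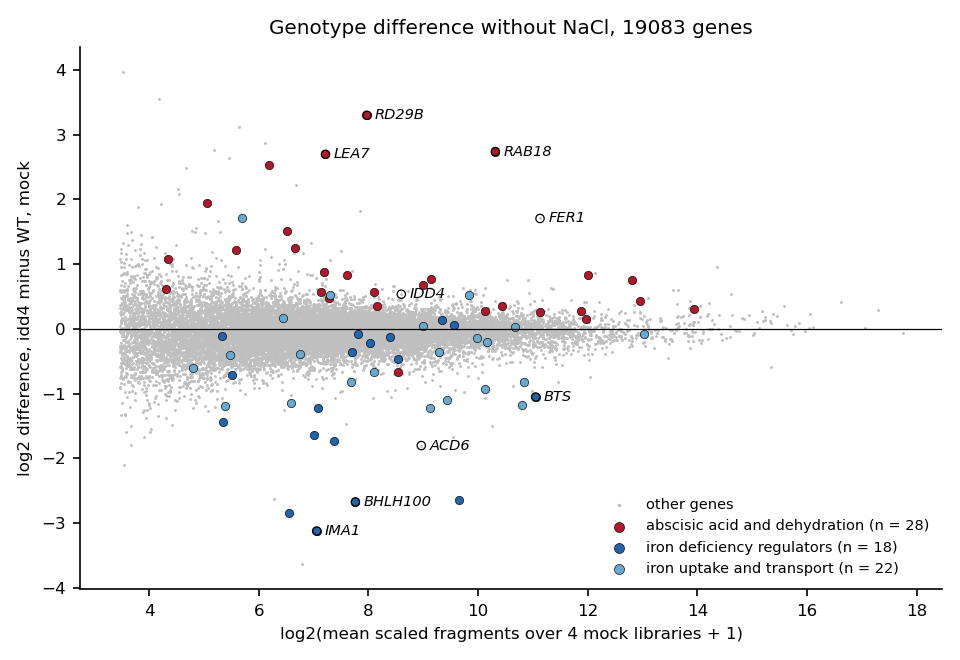
Log2 difference between *idd4* and WT without NaCl (vertical) against the mean level over the 4 mock libraries (horizontal, log2 of scaled fragments), 1 point per gene. ABA and dehydration genes (red) lie almost all above 0 and iron deficiency regulators (dark blue) mostly below, up to 3.300 for *RD29B* and down to -3.12 for *IMA1*.

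*IDD4* itself (AT2G02080; chromosome 2, 518079 to 521737, minus strand, in TAIR10.1) was not depleted in the libraries labelled *idd4*. It was at 274 and 360 in WT mock 1 and 2, and at 477 and 436 in the libraries labelled *idd4*. Both of these lay above both WT values, with a difference of 0.54 (SE 0.19). The values are totals per gene and do not show on which side of the inserted T-DNA the fragments lay, and *idd4* stands throughout for the libraries labelled so. Of the 10 annotated genes on either side of *IDD4*, 13 of 20 were among the genes analysed. Their differences ran from -0.18 to 0.42, and the groups did not overlap in 1 of them, *LCR69* (AT2G02100), which encodes a small cysteine-rich protein of the defensin-like kind. It was at 1085 and 1081 in WT and at 1333 and 1586 in *idd4* (difference 0.42). *IDD5*, the family member next to *IDD4*, was at 1088 and 1544 in WT and at 1132 and 1648 in *idd4*, with overlapping groups.

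Of the 16 *IDD* genes listed, 14 were among the genes analysed. 12 of the 14 were higher on average in *idd4*, with a median of 0.20. The groups did not overlap upwards in 6, 42.9%, beside 8.51% of all genes. *IDD6* stood at 280 and 358 in WT and at 392 and 478 in *idd4* (difference 0.45, SE 0.29). *IDD7*, *MGP*, *NUC* and *JKD*, the last 3 known from root ground tissue, also had groups apart, with differences of 0.21, 0.32, 0.20 and 0.17. Only *IDD4* among the 14 had an unadjusted p under 0.05. *IDD2* was the single member with both *idd4* libraries below WT, by -0.11. Without WT mock 1 the median of the family was 0.10, and without *idd4* mock 1 it was 0.20.

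Genes of ABA and dehydration were the group furthest above 0. Of 29 listed genes 28 were measured at the required level, and 27 of these were higher on average in *idd4*, with a median difference of 0.71 against -0.04 over all genes. Both *idd4* libraries exceeded both WT libraries in 16 of 28 genes, beside the 8.51% of all genes, and in 0 were they below. An unadjusted p under 0.05 was reached by 9, all higher. The list shares 13 of its 29 genes with a cluster that the study drew from these same libraries, and is not independent of it. Among the 15 measured members outside that cluster, 14 were higher and the groups were apart in 7, with a median of 0.36. These members too come from a list chosen with earlier results of these data known, and are no independent test.

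The promoters of 4 of the genes furthest apart are shown because the ABA-responsive element, to which the bZIP factors of the ABA pathway bind, has the core ACGTG. The 200 bases before the annotated start are written 5′ to 3′ on the strand of the gene, from RefSeq TAIR10.1, with each ACGTG on either strand in capitals. They are chr5:26519448-26519647 (minus) for *RAB18*, chr5:21236821-21237020 (plus) for *RD29B*, chr1:19619524-19619723 (plus) for *LEA7* and chr5:2090431-2090630 (minus) for *LEA4-5*.
RAB18: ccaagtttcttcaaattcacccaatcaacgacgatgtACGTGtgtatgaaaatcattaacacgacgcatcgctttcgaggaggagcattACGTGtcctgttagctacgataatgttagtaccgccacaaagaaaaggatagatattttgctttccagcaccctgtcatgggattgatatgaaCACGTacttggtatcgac
RD29B: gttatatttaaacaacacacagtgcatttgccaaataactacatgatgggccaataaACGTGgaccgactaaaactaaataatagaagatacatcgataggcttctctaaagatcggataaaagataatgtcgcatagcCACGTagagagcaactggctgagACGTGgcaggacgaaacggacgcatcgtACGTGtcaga
LEA7: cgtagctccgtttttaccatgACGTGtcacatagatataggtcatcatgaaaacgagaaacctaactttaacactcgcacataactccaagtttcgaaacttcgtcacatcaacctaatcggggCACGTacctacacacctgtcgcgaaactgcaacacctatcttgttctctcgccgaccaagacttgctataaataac
LEA4-5: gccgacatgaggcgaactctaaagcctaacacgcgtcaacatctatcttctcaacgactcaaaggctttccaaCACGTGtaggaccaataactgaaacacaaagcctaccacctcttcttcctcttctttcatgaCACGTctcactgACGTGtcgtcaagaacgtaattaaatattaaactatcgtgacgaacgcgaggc
Counting both strands, on which the palindrome CACGTG holds the core 2 times, the core was present 3, 4, 2 and 4 times in these promoters. It was found in 15 of the 28 promoters of the list, 53.6%, and in 19.9% of all 26553 nuclear promoters of that length. In the 16 genes whose groups did not overlap it was found in 7, 43.8%. AGACAA, a motif given for IDD proteins, was in none of the 4 promoters, in 2 of 28 of the list and in 15.9% of all. A match of letters is a description and not a bound site.

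The largest differences of the list were in effector genes. *RAB18*, *RD29B*, *LEA7* and *LEA4-5* all lie in the cluster that the study drew from these same libraries. In the members outside it the highest difference was 1.94. *RAB18* (AT5G66400), a dehydrin, was at 220 and 245 in WT and at 4020 and 603 in *idd4*. *RD29B* (AT5G52300), a desiccation protein under ABA control, was at 28.9 and 30.8 in WT and at 828 and 110 in *idd4*. *LEA7* (AT1G52690), a LEA protein, was at 26.8 and 44.8 in WT and at 380 and 139 in *idd4*. In all of these the groups were well apart, and *idd4* mock 1 was several times higher than *idd4* mock 2. The differences were 2.74 (SE 0.80) for *RAB18*, 3.300 (SE 0.90) for *RD29B* and 2.70 (SE 0.53) for *LEA7*. Without *idd4* mock 1 they were 1.37, 1.85 and 1.98. *LEA4-5* (AT5G06760) was at 16.1 and 17.9 in WT and at 202 and 52.0 in *idd4*, a difference of 2.53 (SE 0.76), or 1.56 without *idd4* mock 1. Of the list's genes also known from the cold response, *KIN1*, *COR15A*, *RD29A* and *ERD10* had groups apart, while *COR15B*, *KIN2*, *COR47* and *LTI30* overlapped, with differences of 0.15, 0.36, 0.31 and 0.26. *KIN1* (AT5G15960), which encodes a small hydrophilic protein, was at 99.5 and 102 in WT and at 182 and 193 in *idd4* (difference 0.89, SE 0.35). *COR15A*, which encodes a chloroplast protein that protects membranes, was at 2975 and 2964 in WT and at 5590 and 4964 in *idd4*. *RD29A*, the neighbour and relative of *RD29B*, was at 4454 and 6248 in WT and at 9167 and 8619 in *idd4*. *ERD10*, a dehydrin, was at 5740 and 7871 in WT and at 8774 and 9407 in *idd4*. In each of these 4 genes both *idd4* libraries were above both WT libraries.

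Genes for making, sensing and relaying the hormone pointed the same way with smaller differences. *NCED3* (AT3G14440), the enzyme that limits ABA synthesis under drought, was at 112 and 169 in WT and at 253 and 240 in *idd4* (difference 0.83, SE 0.36). *P5CS1* (AT2G39800), which makes the osmolyte proline, was at 417 and 367 in WT and at 689 and 566 in *idd4* (difference 0.67, SE 0.23). Neither rested on *idd4* mock 1, since without it the differences were still 0.80 and 0.53. The PP2C phosphatases that restrain ABA signalling were uneven. *HAI2* (AT1G07430) was at 12.8 and 7.96 in WT and at 89.2 and 19.2 in *idd4* (difference 1.94, SE 0.63). *HAI1* was at 36.4 and 33.8 in WT and at 248 and 41.6 in *idd4*. *ABI1* was at 1004 and 1015 in WT and at 1326 and 1128 in *idd4*. In these phosphatases the groups did not overlap, and for *HAI1* nearly all of the difference lay in *idd4* mock 1. For *ABI2* and *HAB1* the groups overlapped, with differences of 0.48 and 0.35.

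Among transcription factors of the pathway, *HB12* (AT3G61890) and *HB7* (AT2G46680), related homeodomain proteins induced by water deficit, had groups apart. *HB12* was at 57.8 and 54.7 in WT and at 198 and 92.8 in *idd4* (difference 1.25, SE 0.53). *HB7* was at 410 and 402 in WT and at 894 and 543 in *idd4* (difference 0.78, SE 0.35, and 0.42 without *idd4* mock 1). The NAC factors *RD26* and *NAC019* were high in *idd4* mock 1 alone. *RD26* was at 229 and 184 in WT and at 498 and 186 in *idd4*, and *NAC019* at 10.7 and 7.96 in WT and at 50.9 and 7.996 in *idd4*. Their groups overlapped, and without *idd4* mock 1 the differences turned to -0.14 and -0.19. *NAC019*, with a WT mean under 10, was among the genes analysed only through *idd4* mock 1. The one member of the list that was lower on average was *CYP707A3*, which breaks ABA down, at 308 and 479 in WT and at 97.9 and 599 in *idd4* (difference -0.66, or 0.64 without *idd4* mock 1). Taking *idd4* mock 2 alone, the list had a median of 0.49 over WT mock 1 and 0.39 over WT mock 2, with 24 of 28 genes higher in each case. For *idd4* mock 1 these medians were 0.98 and 0.88.

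**Figure D2:**
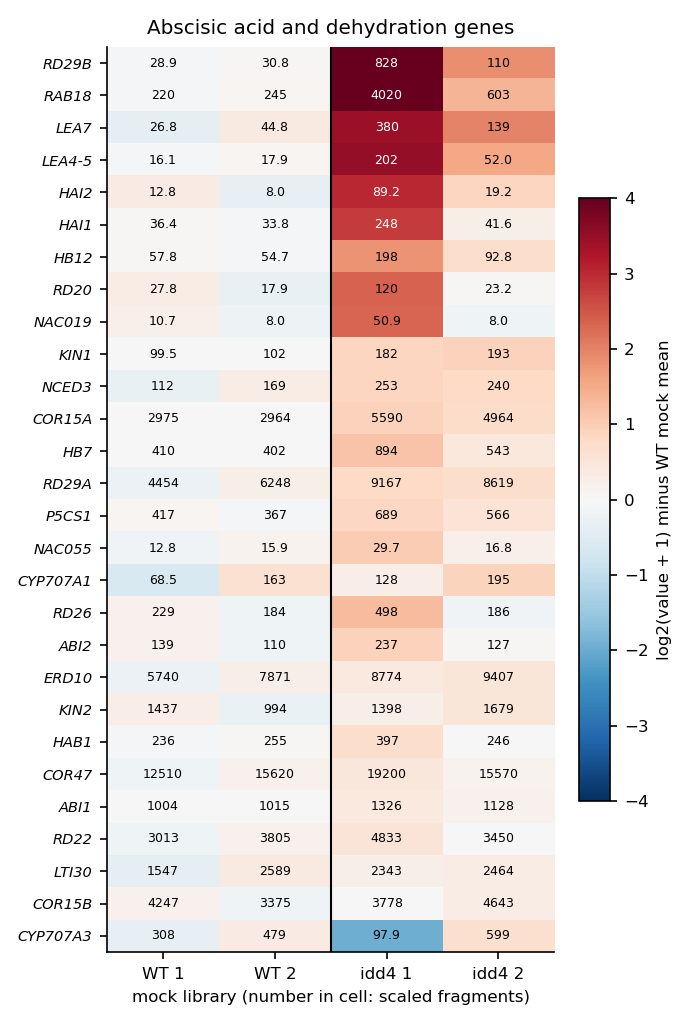
Scaled fragments of the 28 ABA and dehydration genes in the 4 mock libraries, with the colour giving log2(value + 1) relative to the mean of the 2 WT libraries (saturated at 4). Most rows are red in both *idd4* libraries and deepest in *idd4* mock 1, where *RAB18* reached 4020 against 220 and 245 in WT.

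Outside the list, the genes with the smallest p in the upward direction are given as a description, since that p chose them. Of those that follow, all but *AT2G37870* and *CCA1* had a WT mean under 10 and were among the genes analysed only through the *idd4* libraries. *AT3G17520*, a LEA protein, was at 7.49 and 8.95 in WT and at 72.9 and 51.2 in *idd4* (difference 2.76, SE 0.80). *AT2G42560*, another LEA protein, had 0 fragments in both WT libraries and 38 and 7 in *idd4*. *AT5G50360*, annotated with a von Willebrand factor A domain, had 1 fragment in each WT library and 60 and 11 in *idd4*. *NAP* (AT1G69490), a NAC factor that promotes leaf senescence, was at 3.21 and 11.9 in WT and at 50.9 and 32.0 in *idd4* (difference 2.49, SE 0.52). *DAA1* (AT1G64110), an AAA-type ATPase, had the lowest p of all genes and was at 7.49 and 7.96 in WT and 44.1 and 29.6 in *idd4*. The others were a protein kinase (*AT5G38240*), a lipid-transfer protein (*AT2G37870*), a cupin (*AT4G28703*) and the clock gene *CCA1*, with differences of 1.41, 1.49, 1.94 and 1.06.

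Of the 9 senescence and sugar starvation genes listed, 6 were measured and all 6 were higher on average, with a median of 0.29. The groups were apart upwards in 2 of the 6, 33.3%, beside 8.51% of all genes. Of the 9, 2 lie in the cluster of the study that shares genes with the ABA list and 1 in another cluster drawn from these libraries. *ORE1*, a NAC regulator of senescence, was at 18.2 and 27.8 in WT and at 48.9 and 41.6 in *idd4* (difference 0.97, SE 0.39). Without *idd4* mock 1 the median of that group was 0.13, and for *idd4* mock 2 against WT mock 2 it was 0.03.

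Iron deficiency genes were the group furthest below 0. Of 18 measured regulators of iron deficiency 16 were lower on average in *idd4*, with a median of -0.88. The median was -0.66 without *idd4* mock 1 and -1.38 without *idd4* mock 2. Both *idd4* libraries were below both WT libraries in 10 of 18, beside 15.9% of all genes, and 7 had an unadjusted p under 0.05, all lower. Of 22 genes of iron uptake and transport 16 were lower, with a median of -0.39, the groups were apart downwards in 13 and upwards in 2, and 3 had an unadjusted p under 0.05, all lower. Both lists were chosen with earlier results of these data known. They share 7 and 4 genes with another cluster drawn by the study from these libraries. In the 11 regulators outside that cluster the median was -0.22 and the groups were apart downwards in 3, beside 15.9% of all genes. That median was -0.03 without *idd4* mock 2 and -0.55 without WT mock 2, and for *idd4* mock 1 against WT mock 2 it was 0.16, with 6 of 11 higher. In the 18 uptake genes outside the cluster the median was -0.28, and the groups were apart downwards in 9.

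The upstream sequences of *IMA1*, *BHLH100*, *BTS* and *PYE* are written in the same way, again with ACGTG in capitals. The bHLH factors of this network bind E-boxes such as CACGTG, which contains that core. Capitals outside a CACGTG, as before *IMA1* and *PYE*, do not mark an E-box, and other E-boxes are not marked. These genes were chosen after values were seen, and *IMA2*, *BHLH38* and *BHLH39* differed more than *BTS* and *PYE*. The sequences are chr1:17385507-17385706 (plus) for *IMA1*, chr2:17199455-17199654 (minus) for *BHLH100*, chr3:6273766-6273965 (plus) for *BTS* and chr3:17566926-17567125 (plus) for *PYE*.
IMA1: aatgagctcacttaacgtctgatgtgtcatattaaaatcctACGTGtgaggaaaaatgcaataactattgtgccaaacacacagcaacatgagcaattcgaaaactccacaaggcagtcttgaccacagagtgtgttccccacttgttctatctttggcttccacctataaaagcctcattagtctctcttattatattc
BHLH100: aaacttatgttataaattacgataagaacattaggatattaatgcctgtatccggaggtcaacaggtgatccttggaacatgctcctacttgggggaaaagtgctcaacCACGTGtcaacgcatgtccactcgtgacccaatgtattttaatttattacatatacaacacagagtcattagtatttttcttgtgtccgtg
BTS: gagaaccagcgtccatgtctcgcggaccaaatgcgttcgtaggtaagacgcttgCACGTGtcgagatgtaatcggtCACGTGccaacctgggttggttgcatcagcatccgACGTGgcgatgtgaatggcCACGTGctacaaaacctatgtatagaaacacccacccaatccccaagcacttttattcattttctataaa
PYE: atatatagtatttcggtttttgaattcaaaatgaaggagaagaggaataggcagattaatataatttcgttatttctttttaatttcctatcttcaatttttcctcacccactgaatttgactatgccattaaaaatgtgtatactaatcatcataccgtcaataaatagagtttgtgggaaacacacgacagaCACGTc
CACGTG was present 1 time before *BHLH100*, 3 times before *BTS* and 0 times before *IMA1* and *PYE*. It was in 3 of the 18 promoters of the regulators, 16.7%, all 3 among the 10 whose groups were apart, and in 5.72% of all nuclear promoters. The shorter core ACGTG was in 6 of 18, those shown included, and in 19.9% of all nuclear promoters. AGACAA was in 1 of 18.

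The IMA peptides, small iron-responsive signals that move in the phloem, had some of the lowest values relative to WT. *IMA1* (AT1G47400) was at 185 and 274 in WT and at 10.6 and 57.6 in *idd4* (difference -3.12, SE 0.74). *IMA2* (AT1G47395) was at 116 and 193 in WT and at 6.72 and 56.0 in *idd4* (difference -2.84, SE 0.86). *IMA3* (AT2G30766) was at 1248 and 1112 in WT and at 42.2 and 821 in *idd4*. All 3 were lowest in *idd4* mock 1, yet *idd4* mock 2 was also below both WT libraries in each. Without *idd4* mock 1 the differences were -1.95, -1.40 and -0.52. *IMA1* and *IMA2* are related and adjacent, and no exonic window of the length of a read was shared between them or with the rest of the genome.

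The bHLH factors of subgroup Ib, which act with FIT to switch on iron uptake, were low in both libraries. *BHLH100* (AT2G41240) was at 214 and 538 in WT and at 36.5 and 75.2 in *idd4* (difference -2.67, SE 0.67). *BHLH39* (AT3G56980) was at 173 and 209 in WT and at 45.1 and 81.6 in *idd4* (difference -1.63, SE 0.57). *BHLH38* and *BHLH101* had differences of -1.73 (SE 0.98) and -1.44 (SE 1.04), also with groups apart. By contrast *FIT* overlapped, at 341 and 213 in WT and at 310 and 173 in *idd4*. The subgroup IVc factors above them in the network, *BHLH34*, *BHLH104*, *ILR3* and *BHLH115*, differed by -0.10, -0.36, 0.13 and 0.06, with overlapping groups. *PYE* (AT3G47640), a repressor in the iron response of the root stele, was at 199 and 172 in WT and at 55.6 and 112 in *idd4* (difference -1.22, SE 0.36). *BTS* (AT3G18290), the ligase that restrains the response, was at 2571 and 3092 in WT and at 1064 and 1736 in *idd4* (difference -1.05, SE 0.26). Both *idd4* libraries were low in both of these genes.

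Downstream, the ferric reductase and the main importer of the root surface were both lower. *FRO2* was at 785 and 765 in WT and at 320 and 345 in *idd4* (difference -1.22, SE 0.66). *IRT1* was at 2368 and 2312 in WT and at 1224 and 1428 in *idd4* (difference -0.82, SE 0.53). In these genes the libraries of a group were close together here, while the SE reflects all 8 libraries of the fit. *FRO3*, a mitochondrial reductase, was at 702 and 1203 in WT and at 387 and 477 in *idd4* (difference -1.10, SE 0.41). *ZIF1*, a vacuolar transporter of the chelator nicotianamine, was at 120 and 139 in WT and at 42.2 and 80.0 in *idd4* (difference -1.14, SE 0.34). *OPT3*, which loads iron into the phloem, was at 2451 and 2227 in WT and at 560 and 1919 in *idd4* (difference -1.17, SE 0.51). The last was mainly a matter of *idd4* mock 1, since without it the difference was -0.28. *CYP82C4* and *S8H*, which make and modify coumarins that mobilise iron, differed by -0.93 (SE 1.29) and -1.19 (SE 1.82). The uptake genes with both *idd4* libraries above WT were *NAS3*, a nicotianamine synthase, at 11.8 and 30.8 in WT and 126 and 33.6 in *idd4*, and *NRAMP3*, an exporter of iron from the vacuole, at 111 and 147 in WT and 200 and 170 in *idd4*. Outside the lists, genes with a small p included *ORG1* and *AT2G14247*. *ORG1* (AT5G53450) was at 1660 and 1890 in WT and at 472 and 832 in *idd4*, and *AT2G14247*, of no known function, was at 135 and 260 in WT and at 4.797 and 38.38 in *idd4*.

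Ferritin and iron storage genes were higher in *idd4* mock 1 alone. Of 10 listed genes 6 were measured. *FER1* (AT5G01600), the main leaf ferritin, was at 418 and 1334 in WT and at 6247 and 952 in *idd4*. *FER3* was at 395 and 319 in WT and at 1275 and 239 in *idd4*, and *FER4* at 89.9 and 189 in WT and at 397 and 148 in *idd4*. The median of the 6 was 0.55 with both libraries and -0.03 without *idd4* mock 1, and the groups were apart in 0 of them. Of 7 genes of iron superoxide dismutases and plastid iron-sulfur assembly, 2 were higher and 5 lower, with a median of -0.07 against -0.04 over all genes. The groups were apart upwards in 2 and downwards in 3, 28.6% and 42.9%, beside 8.51% and 15.9% of all genes. Of the 7, 2 lie in the cluster of the study that also holds iron regulators. *FSD2* and *FSD3*, dismutases of the plastid nucleoid, differed by -0.72 (SE 0.28) and -0.68 (SE 0.22). *SUFB*, a scaffold for iron-sulfur clusters, was at 1815 and 2216 in WT and at 3557 and 2710 in *idd4* (difference 0.63, SE 0.21). *FSD1*, which depends on copper supply, was at 2089 and 2249 in WT and at 2101 and 2029 in *idd4*.

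**Figure D3:**
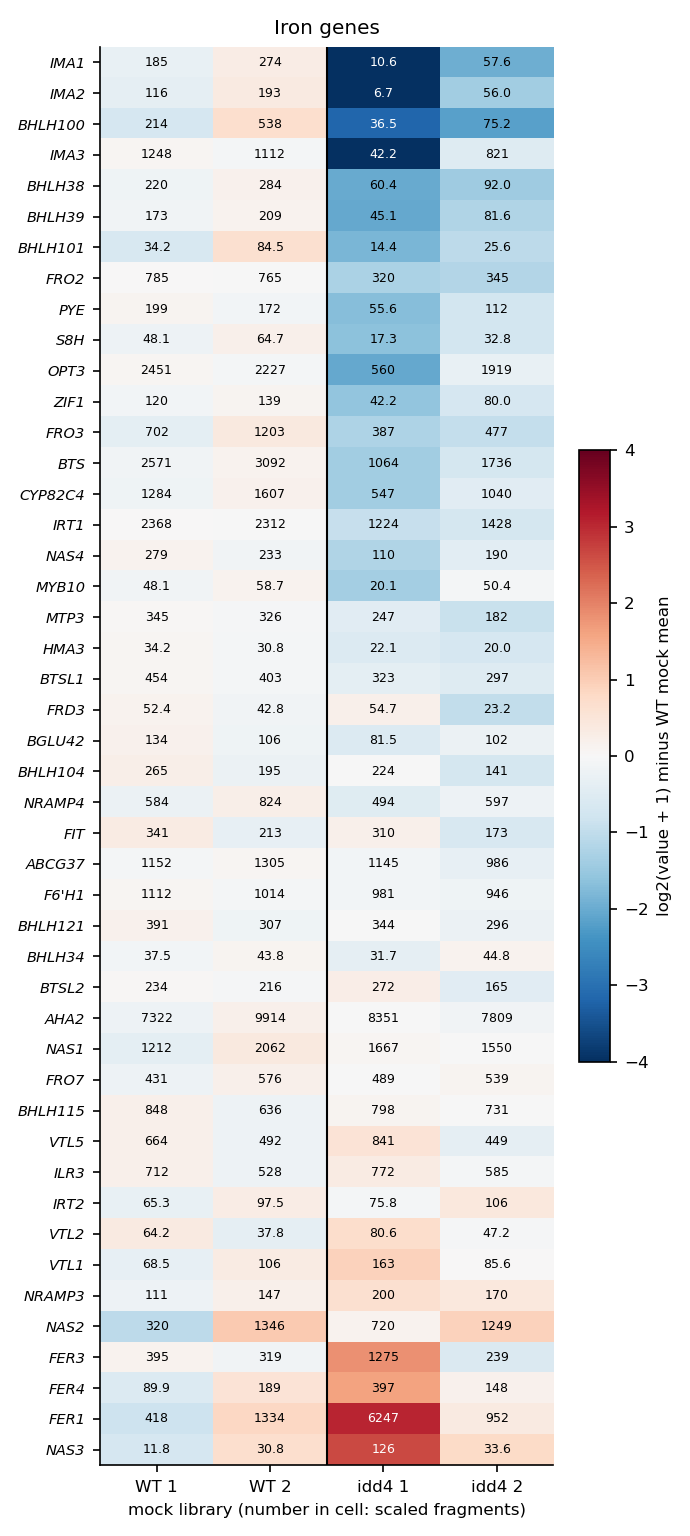
Scaled fragments of the genes of iron regulation, uptake and storage in the 4 mock libraries, coloured by log2(value + 1) relative to the mean of the 2 WT libraries (saturated at 4). Rows of the regulators are mostly blue in both *idd4* libraries, as for *BHLH100* (36.5 and 75.2 against 214 and 538), whereas the ferritins at the bottom are red in *idd4* mock 1 only.

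Genes of protein synthesis and turnover were mostly lower, with WT mock 1 as the high library. Of 121 genes annotated as ribosomal proteins of eukaryotic type, 108 were measured and 99 of these were lower on average, with a median of -0.33. The groups were apart downwards in 48, 44.4%, beside 15.9% of all genes, and upwards in 2. An unadjusted p under 0.05 was reached by 10, all lower. The list was made after values were seen, and 9 of its genes lie in the cluster of the study that also holds iron genes. In the 99 measured genes outside that cluster the median was -0.30. An example is *AT2G27710*, an acidic protein of the large subunit, at 658 and 748 in WT and at 503 and 456 in *idd4* (difference -0.55, SE 0.16). Summed over the list, the level was 99320 in WT mock 1, 73110 in WT mock 2, and 70220 and 68170 in *idd4*. Without WT mock 1 the median was -0.08, without *idd4* mock 1 it was -0.36, and of the 108 genes 58 were lower in *idd4* mock 1 than in WT mock 2. Of 28 proteasome subunits 25 were lower, with a median of -0.16, or -0.06 without WT mock 1 and -0.37 without *idd4* mock 1. Of the 28, 5 lie in the same cluster, and in the 23 outside it the median was -0.11. *PBE1* and *PBF1*, beta subunits of the core particle, differed by -0.49 (SE 0.18) and -0.77 (SE 0.32). All 9 subunits of the CCT chaperonin, which folds actin and tubulin, were lower on average, with a median of -0.30, or -0.19 without *idd4* mock 1. The groups were apart downwards in 4 of them, 44.4%, beside 15.9% of all genes, and 1 of the 9 lies in the same cluster. *CCT1* was at 307 and 213 in WT and at 165 and 161 in *idd4* (difference -0.65, SE 0.26).

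Genes of the stomatal lineage were slightly lower. Of 17 measured genes 16 were lower on average, with a median of -0.23. Both *idd4* libraries were below both WT libraries in 8, 47.1%, beside 15.9% of all genes, and 0 had an unadjusted p under 0.05. *FAMA*, which sets guard cell identity, was at 217 and 223 in WT and at 189 and 199 in *idd4*. *POLAR*, a polarity protein of dividing stomatal precursors, was at 71.7 and 68.6 in WT and at 48.9 and 57.6 in *idd4*. *EPFL9*, the peptide stomagen, was at 73.8 and 45.8 in WT and at 38.4 and 45.6 in *idd4*. These groups were apart by small margins, with differences of -0.18 (SE 0.22), -0.40 (SE 0.45) and -0.47 (SE 0.36). *SPCH*, which starts the lineage, and *SDD1*, a protease that limits stomatal number, overlapped. *SPCH* was at 59.9 and 77.6 in WT and at 50.9 and 62.4 in *idd4*, and *SDD1* at 116 and 178 in WT and at 88.3 and 192 in *idd4*. Of 10 genes of guard cell function 7 were lower, with a median of -0.10, or -0.00 without *idd4* mock 1. *MYB61*, a factor that favours stomatal closure, was at 38.5 and 37.8 in WT and at 33.6 and 14.4 in *idd4* (difference -0.76, SE 0.47, and -0.18 without *idd4* mock 2).

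Touch and early stress genes split the *idd4* libraries. 15 of 16 were lower in *idd4* mock 1 than in WT mock 1, and 15 of 16 were higher in *idd4* mock 2 than in WT mock 1. Against WT mock 2, 0 of 16 were higher in *idd4* mock 1 and 11 of 16 in *idd4* mock 2, with medians of -1.30 and 0.12. *TCH4*, a cell wall enzyme induced by touch, was at 1884 and 2503 in WT and at 999 and 2804 in *idd4*. *WRKY33*, a defence regulator, was at 1265 and 1681 in WT and at 630 and 1933 in *idd4*. The groups overlapped in both, and the median of the list was -0.36 with both libraries and 0.36 without *idd4* mock 1. The library with the highest ABA and ferritin values was thus the one with the lowest touch genes, whose summed level was 10020 in *idd4* mock 1 and 18840 to 28370 in the other 3. Whether these genes had a part in the ABA and iron values was not tested.

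In the group of salicylate and immunity, 9 of 16 genes were lower, beside 57.6% of all genes. The median was -0.14, and 0.04 without *idd4* mock 1. *WRKY54* (AT2G40750), a regulator of senescence and defence, was at 246 and 197 in WT and at 72.9 and 151 in *idd4* (difference -1.06, SE 0.35). Genes of defence outside this list, named for their small p, were *ACD6* and *CRH1*. *ACD6* (AT4G14400), an ankyrin protein that raises salicylate, was at 1110 and 469 in WT and at 187 and 227 in *idd4* (difference -1.80, SE 0.48). Both *idd4* libraries were low, while WT mock 1 was more than 2-fold above WT mock 2. *CRH1*, a MORC-type ATPase of immunity, differed by -1.49 (SE 0.45). The marker *PR5*, a member of the list, was at 108 and 117 in WT and at 117 and 121 in *idd4*.

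For transport of sodium and potassium the median over 11 genes was 0.02, with differences from -1.13 to 1.07. The groups were apart upwards in 1 and downwards in 2, 9.09% and 18.2%, beside 8.51% and 15.9% of all genes. *HAK5* (AT4G13420), the high-affinity potassium importer, was at 27.8 and 56.7 in WT and at 78.7 and 91.2 in *idd4* (difference 1.07, SE 0.42, and 0.57 without WT mock 1). *SOS3*, the calcium sensor of the salt overly sensitive pathway, was at 28.9 and 34.8 in WT and at 33.6 and 32.0 in *idd4*, and *SOS1*, *NHX1* and *AVP1* differed by -0.19, 0.02 and -0.05. *MPK6*, a MAP kinase of stress and development, was at 355 and 337 in WT and at 396 and 338 in *idd4*. *MYB15*, with a WT mean under 10, was among the genes analysed only through the *idd4* libraries. It was at 4.28 and 12.9 in WT and at 12.5 and 13.6 in *idd4* (difference 0.71, or 0.01 without WT mock 1). None of these last genes had groups apart except *AVP1*, by a narrow margin. A set of genes came from a list of IDD4 targets found by chromatin immunoprecipitation and annotated to salt. The 50 genes of this set were divided, 23 higher and 27 lower, with a median of -0.03. Their groups were apart upwards in 4 and downwards in 5, which is 8% and 10% against 8.51% and 15.9% of all genes, and 0 reached an unadjusted p under 0.05.

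Growth hormone genes had small median differences. Of 16 auxin genes 12 were higher, with a median of 0.17 and groups apart upwards in 5, 31.25%. Of 17 gibberellin and DELLA genes 12 were higher, with a median of 0.13 and groups apart upwards in 4, 23.5%. Both shares stand beside 8.51% of all genes. *IAA14*, an auxin repressor, was at 156 and 126 in WT and at 209 and 186 in *idd4* (difference 0.49, SE 0.23). *RGL3*, a DELLA gene induced by stress, was at 22.5 and 24.9 in WT and at 48.0 and 37.6 in *idd4* (difference 0.82, SE 0.54). The DELLA genes *GAI* and *RGA* differed by -0.01 and 0.05. Of 17 clock genes 9 were higher, with a median of 0.04. *CCA1*, a morning gene, was at 19.3 and 30.8 in WT and at 46.0 and 58.4 in *idd4* (difference 1.06, SE 0.30). Its partner *LHY* overlapped, at 20.3 and 11.9 in WT and at 17.3 and 7.996 in *idd4*. Single members of other groups had an unadjusted p under 0.05: *HEMA1*, of chlorophyll synthesis, *GLK2*, of chloroplast development, *MAF5*, of flowering time, *EXPA16*, an expansin, and *AT4*, a phosphate starvation RNA, were higher by 0.76, 0.49, 1.48, 1.67 and 1.07, and *AUR2*, a mitotic kinase, differed by -1.25. Photosynthesis, nitrate, jasmonate, heat shock and anthocyanin lists had medians between -0.07 and 0.05. Without *idd4* mock 1 these medians ran from -0.29 for heat shock to 0.19 for photosynthesis.

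Markers were in keeping with whole seedlings. Leaf and root markers had medians of -0.03 and -0.02 between the genotypes, and 0 of the 6 seed and pollen markers reached the required level, the highest being 5.60 for *CRA1*. For root markers the median was 0.26 and 0.17 in *idd4* mock 1 over the WT libraries and -0.25 and -0.27 in *idd4* mock 2 over the same. The part of root content in these results was not tested. Reference genes had a median of -0.10, with *ACT2* at 6875 and 5993 in WT and at 6838 and 5180 in *idd4*. At the edge of the chosen genes, *CBL6* averaged just over 10 and was included, at 10.7 and 6.96 in WT and 9.59 and 12.8 in *idd4*. *AT4G34360* averaged just under 10 and was left out, at 13.9 and 8.95 in WT and 6.72 and 10.4 in *idd4*.

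**Figure D4:**
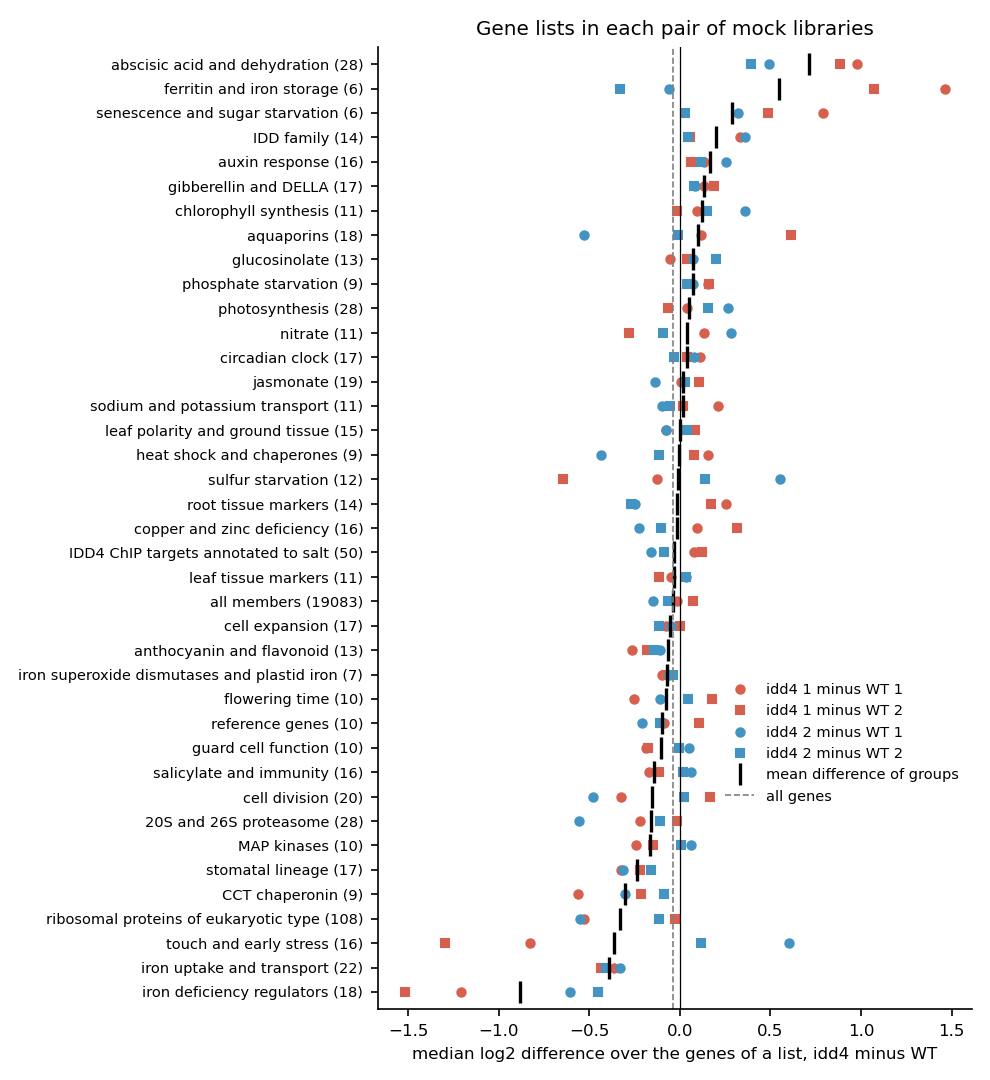
Median log2 difference of each gene list, *idd4* minus WT, in the 4 possible pairs of 1 *idd4* and 1 WT mock library (coloured points) and for the group means (black bars), with the number of genes in brackets. The ABA list is above 0 and the iron regulators and uptake genes below 0 in all 4 pairs, while ferritin and touch genes differ in sign between *idd4* mock 1 (red) and *idd4* mock 2 (blue).

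The libraries grown with NaCl, which share no library with the mock groups, gave the genotype difference a second time under another condition. Of the 151 genes at an unadjusted p under 0.05 and lower without NaCl, 138 were also lower under NaCl, 91.4%, beside 57.4% of all genes. Their median went from -0.73 to -0.29. Of the 74 higher genes 43 were also higher under NaCl, 58.1%, beside 42.6% of all genes, and their median went from 1.06 to 0.14. The test of the difference between the conditions, the interaction of genotype and NaCl, passed 0 of 19083 genes with limma, at an adjusted p under 0.05, and had 166 genes at an unadjusted p under 0.05, 0.87% of all. edgeR and DESeq2 also passed 0 genes.

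By group, 22 of the 28 ABA genes were higher in *idd4* under NaCl too, with a median of 0.43. The list shares 13 of its 29 genes with a cluster that the paper describes as higher in *idd4* after salt. For those genes the direction under NaCl is no separate result. Among the 15 measured members outside that cluster 9 were higher and 6 lower under NaCl, with a median of 0.10. *RD29B*, *LEA7* and *RAB18*, all of that cluster, differed by 2.37, 1.79 and 1.44 under NaCl, and *COR15A* and *KIN1* by -0.43 and -0.42. Among the iron regulators 14 of 18 were lower under NaCl, with a median of -0.23. *IMA1* differed by -0.95 and *BHLH38* by -1.20, whereas *BTS* and *PYE* differed by -0.03 and -0.08. For *BTS* the interaction was 1.02 and for *BHLH100* 2.35, neither past adjustment (adjusted p = 1, limma). The uptake list had a median of -0.08 under NaCl. *ACD6* was lower there as well, by -1.21, and *WRKY54* was not, at 0.35. The touch list had a median of 0.28, with 15 of 16 genes higher.

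**Figure D5:**
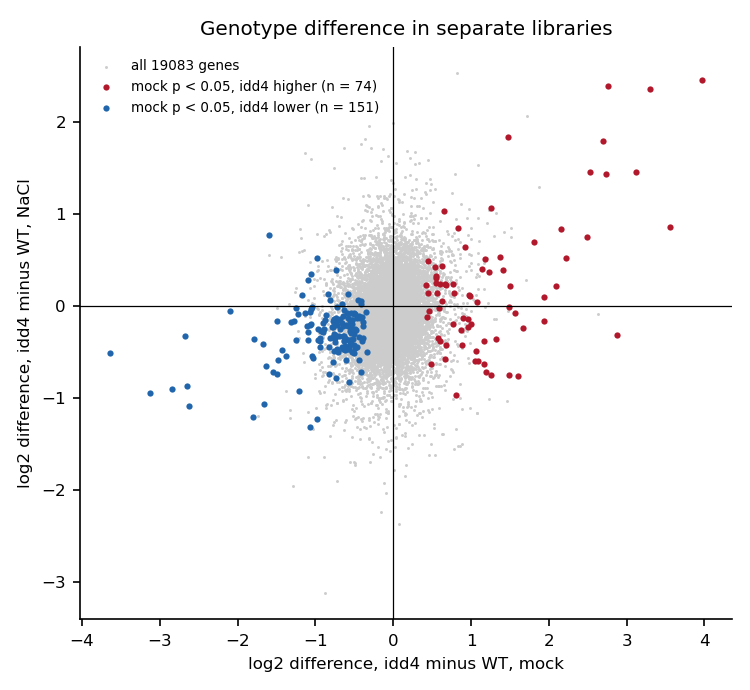
Log2 difference between *idd4* and WT without NaCl (horizontal) and with NaCl (vertical), 1 point per gene, from separate libraries. Of the genes at an unadjusted p under 0.05 without NaCl, 138 of 151 lower ones (blue) also lie below 0 on the vertical axis, and 43 of 74 higher ones (red) lie above it.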

How the data were processed

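Total RNA of whole seedlings was sequenced by the authors, who per the labels checked reads with FastQC, trimmed them with Trimmomatic 0.32 and used the TAIR10 genome. The deposited values are a signal per gene, a fragment count multiplied by 1 factor per library and not divided by length, although the table is named for another unit. In the 4 mock libraries 99.88% to 99.95% of values were whole fragments after division by that factor, within a tolerance of 0.05. How the authors counted reads of either strand or of near-identical genes is not given in the sources used here.

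From the deposited values, log2(value + 1) of 19083 genes was fitted in limma 3.58.1 (R 4.3.3), giving each of 4 groups its own mean, all 8 libraries sharing 1 trended variance. P-values are two-sided, adjusted by Benjamini-Hochberg, with 0.05 as the threshold. Fold changes of low genes are understated by the added 1. Named genes are *IDD* genes, genes the paper names, the 12 smallest p per direction with groups apart, members of lists with an unadjusted p under 0.05 or else a high mean, and the genes at the edge of the rule. *LCR69*, further list members shown beside these, the shown promoters, the ribosomal list and the core ACGTG were chosen after values were seen. Members and lists were chosen with earlier results of these data known. The fit was tested on simulated data. Alternatives were other scalings, filters, pseudocounts and variance models, edgeR 4.0.16 and DESeq2 1.42.0 on recovered fragments, a replicate block, and each library left out. Identifiers matched the TAIR10.1 reference for 26558 of 27207 genes, 100 of the 19083 being without a match.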

Additional observations from a re-analysis of the deposited data

Results flagged for a closer look

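For *AT2G37870* and *CCA1* both *idd4* libraries were above both WT libraries without NaCl and below both under NaCl. *AT2G37870*, a lipid-transfer protein, was at 19.3 and 18.9 in WT and 71.0 and 43.2 in *idd4* without NaCl, and at 1272 and 1405 in WT and 508 and 1239 in *idd4* with it, an interaction of -2.24 (SE 0.56). *CCA1* was at 228 and 231 in WT and at 134 and 171 in *idd4* under NaCl, an interaction of -1.65 (SE 0.43). *GLK2* was at a difference of 0.49 without and -0.63 with NaCl (interaction -1.12), and *WRKY54* differed by -1.06 without and 0.35 with NaCl (interaction 1.41), again with groups apart in opposite directions. The adjusted p of these interactions was 1 (limma), and among all 19083 genes 457, or 2.39%, had groups apart in opposite directions. Of the 4655 genes with groups apart without NaCl, as these were, the 457 are 9.82%.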

How the results depend on the processing

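The count of genes past adjustment was 0 under the alternatives run except DESeq2, with 3, and the replicate block, with 1 (*BHLH100*, adjusted p = 0.0186, limma). The higher genes at an unadjusted p under 0.05, 74, were 123 with TMM, 122 with median-of-ratios and 135 with quantile scaling, 126 with edgeR, 116 without a variance trend, 143 without a filter, 33 at a mean of at least 100 and 139 with the block, and 27 to 140 with 1 library left out. The lower genes, 151, were 56 with DESeq2, 95 at a mean of at least 100, 227 without a filter, 263 with the block, and 56 to 440 with 1 library left out, the extremes being without WT mock 1 and without WT mock 2. No source ties equal replicate numbers to a shared batch, and the WT and *idd4* mock replicates deviated together at r = 0.389 across genes, the other pairs of groups at 0.074 to 0.429. The interaction had 0 genes under every alternative.

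Restricted to genes outside the clusters of the study, an alternative chosen after seeing the data, the median of the ABA list was 0.36, of the iron regulators -0.22 and of iron uptake -0.28. Iron uptake was -0.32 with DESeq2, -0.34 with TMM and median-of-ratios, -0.31 with edgeR and -0.33 with quantile scaling. The gibberellin list was 0.19 with DESeq2, TMM, edgeR and median-of-ratios scaling, and the stomatal list -0.14 at a mean of at least 100. With 1 library left out, medians ran from -1.38 to -0.66 for the iron regulators, -0.54 to -0.30 for iron uptake, -0.40 to -0.06 for the proteasome, -0.35 to -0.19 for the stomatal lineage, 0.06 to 0.18 for auxin and 0.07 to 0.16 for gibberellin. *SDD1* turned to 0.01 with edgeR. With 1 library left out, differences ran from -0.14 to 1.27 for *RD26*, -0.19 to 2.34 for *NAC019*, -0.08 to 0.18 for *SOS3*, -1.21 to 0.41 for *WRKY33*, -0.69 to 0.42 for *SDD1*, -0.03 to 0.19 for *MPK6*, 0.57 to 1.57 for *HAK5*, -1.35 to -0.18 for *MYB61* and 0.42 to 1.14 for *HB7*. DESeq2 gave 2.87 for *LEA7*, 2.91 for *LEA4-5* and -1.85 for *ACD6* (adjusted p = 2.97e-05 for the first and 0.0251 for the others). Levels near 10 rest on few fragments. The cause of these shifts was not tested.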
